A study of Homo sapiens with 9 samples.

Results

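The comparison described here set SNU-398 cells that overexpressed either isoform of EMX1 against vector control cells, with the isoforms given equal weight. Its members were chosen by the sample labels: 6 overexpression libraries, 3 of EMX1-FL and 3 of EMX1-X1, against 3 vector control libraries, which are the 9 of 9 libraries of the series. SNU-398 is a human hepatocellular carcinoma (HCC) line of mesenchymal type, and each group was infected with lentivirus that carried EMX1-FL, EMX1-X1 or no insert and was selected with puromycin, so all groups share the vector and the selection. Whether a line was a pool or a clone is not given in the sources used here, and the p-values measure the spread between the 3 libraries of each group. The labels do not say that these came from separate cultures; the study's legends for experiments on these cells speak of biological replicates, without describing the sequenced libraries one by one. The contrast with the vector control asks which genes move with both isoforms, while the contrast of EMX1-FL with EMX1-X1 asks which genes move more with the first or the second.

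EMX1 is a homeobox transcription factor best known from the dorsal telencephalon, where it takes part in the formation of the cerebral cortex. Homeodomain proteins bind short AT-rich sites with the letters TAAT at their core and can raise or lower the transcription of nearby genes. EMX1-FL carries the complete homeodomain, while EMX1-X1 shares the upstream exons and ends in an alternative terminal exon that replaces the end of the homeodomain. Genes that change alike with both isoforms are therefore those whose levels moved irrespective of which terminal exon was expressed.

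The libraries held between 21562703 and 25197970 counted read pairs, and 18574 of 60642 gene names passed the filter on low counts and were tested. The mesenchymal marker VIM was at 703 to 1120 TPM (a transcript level scaled for gene length) in all 9 libraries. Of the other mesenchymal markers, FN1 was at 33.1 to 62.5 and CDH2 at 9.18 to 18.1 TPM. ZEB1 and SPARC were low, at 0.202 to 1.28 and 0.376 to 1.62 TPM. Of 13 hepatocyte and HCC markers, 10 stayed below 1 TPM in every library, AFP, TTR, FOXA2 and KRT18 were at 0 throughout, and GPC3 was at 14.5 to 26.7 TPM. The liver label thus rests on few of its usual markers in these cells. The 4 endothelial and the 4 leukocyte markers were all below 1 TPM in every library, whereas LUM, a stromal proteoglycan, was at 437 to 953 TPM. Of the other stromal markers, ACTA2, DCN and RGS5 were between 14.3 and 52.1 TPM, and PDGFRB was at 0.329 to 0.829 TPM. The first principal component (39.6% of the variance) separated 5 libraries (EMX1-X1 1, EMX1-FL 2 and 3, vector control 1 and 2) from the remaining 4 and cut across all groups. The second (15.4%) separated the 3 vector control libraries, at 15.8 to 44.9, from the 6 overexpression libraries, at -0.95 or below. Mitochondrially encoded genes took 6.96 to 8.18% of the counts in the vector control and 3.84 to 6.67% in the overexpression libraries, without overlap. The p was 0.0238 by a two-sided exact permutation test, which cannot go lower with 6 libraries against 3. A refit without these genes, chosen after the data were seen, is given with the alternatives below. The cause of the shift was not tested.

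Among the genes that passed the filter, more moved upward than downward with either isoform. DEGs (differentially expressed genes) were those with a log2 fold change of 1 or more in either direction and an unadjusted p below 0.05. By this threshold 321 genes were higher, 1.73% of those tested, and 62 were lower, 0.334%. The imbalance depended on the filter. With no filter beyond 1 count, 569 were higher and 499 lower. With at least 10 counts in every library, 124 were higher and 12 lower. When the p-values of edgeR's quasi-likelihood test were adjusted by Benjamini-Hochberg over the 18574 genes and held below 0.05, the fold threshold being kept, 14 genes were higher, 0.0754%, and 0 were lower, 0%. DESeq2 called 97 higher and 8 lower at that adjusted threshold. Without a fold threshold, 855 genes (4.6%) were higher and 338 (1.82%) lower at an unadjusted p under 0.05. All 6 overexpression libraries lay above all 3 vector control libraries for 478 genes (2.57%) and below them for 318 (1.71%). The median log2 fold change over all genes tested was 0.026. The normalization centres most genes by design, so this value does not check the scale.

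**Figure D1:**
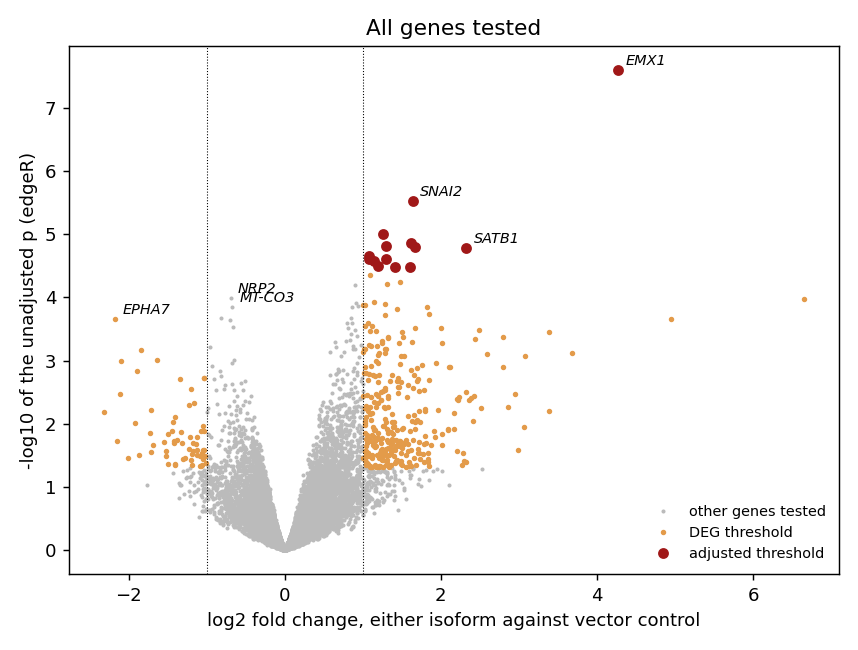
Log2 fold change of either isoform against the vector control (x axis) and -log10 of the unadjusted p from edgeR (y axis) for the 18574 genes tested, with dotted lines at a log2 fold change of 1 in each direction. The 14 genes past the adjusted threshold all lie to the right, EMX1 is at 4.27, and the point farthest right is KCNA3, whose vector control libraries all held 0 counts.

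The DEGs of the 2 directions differed in kind. Of the 321 higher genes, 218 (67.9%) were protein coding, against 71.4% of all genes tested, and 164 had a mean of at least 1 CPM (counts per 1000000 counted read pairs, TMM-normalized). Of the 62 lower genes, 15 (24.2%) were protein coding and 8 had a mean of at least 1 CPM; the others included pseudogenes and antisense and long non-coding RNAs. Antisense and overlapping genes cannot be told apart from their partners here, because the counting did not use strand. The median of the mean levels was 1.03 CPM for the higher DEGs and 0.494 CPM for the lower ones, against 16.2 CPM over all genes tested, so most DEGs rested on few reads. The median GC content was 49.2% for the higher and 44.7% for the lower DEGs, against 48.1% for all genes tested that had a value.

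EMX1 itself, on chromosome 2 from 72916260 to 72936071 of GRCh38, checked the labels. It was at 9.34, 9.99 and 12.9 CPM in the vector control, at 251, 135 and 145 CPM in EMX1-FL cells, and at 145, 294 and 288 CPM in EMX1-X1 cells. Every overexpression library lay far above every vector control library, and the isoform groups overlapped each other. Either isoform gave a log2 fold change of 4.27 (standard error 0.33), with an adjusted p of 0.000466 in edgeR and an exact permutation p of 0.0238. It was 3.87 among the 5 libraries on one side of the first principal component and 4.38 among the other 4. The counts are per gene, so they do not separate the isoforms or the inserted from the endogenous transcript. EMX1 passed an adjusted p of 0.05 under all 24 alternatives run for it.

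Of the 13 other genes past the adjusted threshold, 3 encode transcription factors: SNAI2, a zinc finger repressor that drives epithelial-mesenchymal transition (EMT), SOX11, an HMG-box factor of developing neurons, and SATB1, an organizer of chromatin. SNAI2 (chromosome 8, 48917598 to 48921740) was at 3.64, 3.19 and 2.64 CPM in the vector control, at 12.1, 12.9 and 13.3 CPM in EMX1-FL cells and at 9.11, 7.02 and 6.62 CPM in EMX1-X1 cells. The 3 groups did not overlap, with EMX1-FL highest, and the log2 fold change for either isoform was 1.64 (standard error 0.20, adjusted p = 0.0279). SOX11 (chromosome 2, 5692384 to 5701385) was at 1.54, 1.66 and 1.57 CPM in the vector control, at 5.41, 4.38 and 3.88 CPM in EMX1-FL cells and at 4.79, 6.23 and 4.56 CPM in EMX1-X1 cells. Here the isoform groups overlapped, and the log2 fold change was 1.61 ± 0.23 (SE, adjusted p = 0.0437). SATB1 (chromosome 3, 18345377 to 18445588) had the largest change after EMX1 among the 14: 0.771, 0.480 and 0.453 CPM in the vector control, 2.71, 2.11 and 2.91 CPM in EMX1-FL cells and 2.16, 3.41 and 4 CPM in EMX1-X1 cells. Both isoform groups lay above the vector control and overlapped each other, with a log2 fold change of 2.32 ± 0.33 (SE, adjusted p = 0.0437). Its level per length was low, 0.15 TPM in the vector control and 0.808 TPM over the overexpression libraries.

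The genes past the adjusted threshold that act at the cell surface were PTPRK, TGFBR2, CD24 and KCNA1. PTPRK, a receptor-type tyrosine phosphatase engaged in cell-cell contact (chromosome 6, 127968779 to 128520674), was at 13.4, 14.6 and 13.8 CPM in the vector control, 30, 36.9 and 41.7 CPM with EMX1-FL and 35.2, 28.2 and 27.9 CPM with EMX1-X1. TGFBR2, the type II receptor of TGF-beta (chromosome 3, 30606601 to 30694142), was at 2.70, 2.14 and 2.27 CPM in the vector control, 6.12, 8.76 and 9.05 CPM with EMX1-FL and 8.41, 4.78 and 6.30 CPM with EMX1-X1. In both genes the isoform groups overlapped and all 6 overexpression libraries were above the vector control, with log2 fold changes of 1.26 for PTPRK (standard error 0.17, adjusted p = 0.0437) and 1.6 for TGFBR2 (standard error 0.25, adjusted p = 0.0439). CD24, a small glycoprotein anchored to the membrane by lipid (chromosome 6, 106969831 to 106975627), was at 16.6, 17.0 and 18.9 CPM in the vector control, 36.7, 52.7 and 51.5 CPM with EMX1-FL and 40.4, 31.7 and 29.8 CPM with EMX1-X1. Its log2 fold change was 1.19 ± 0.18 (SE, adjusted p = 0.0439), and because near-identical copies of CD24 lie elsewhere in the genome its count is uncertain. KCNA1, a voltage-gated potassium channel of neurons (chromosome 12, 4909905 to 4918256), was at 3.64, 4.19 and 3.59 CPM in the vector control, 8.69, 10.2 and 11.3 CPM with EMX1-FL and 9.49, 8.77 and 7.71 CPM with EMX1-X1. KCNA1 had a log2 fold change of 1.29 ± 0.18 (SE, adjusted p = 0.0437), and other genes share 7.11% of its exon bases. Its relative KCNA3, singled out after its values were seen, held 0 counts in all 3 vector control libraries and 7, 16 and 6 counts with EMX1-FL and 18, 13 and 17 with EMX1-X1 (adjusted p = 0.0918). The 3 neuron markers summed to 10.3 to 13 TPM in the vector control and 12.7 to 25.7 TPM with either isoform, and their part in the values of KCNA1 and SOX11 was not tested.

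The genes past the adjusted threshold whose proteins are secreted were GREM1, MMP1 and PRSS23. GREM1, a secreted antagonist of BMP ligands (chromosome 15, 32718004 to 32745106), was at 20.8, 23.1 and 15.1 CPM in the vector control, 51.6, 69.3 and 61.4 CPM with EMX1-FL and 45.9, 35.7 and 34.3 CPM with EMX1-X1. MMP1, an interstitial collagenase (chromosome 11, 102789919 to 102798160), was at 7.41, 7.29 and 8.32 CPM in the vector control, 23.5, 27.2 and 19.5 CPM with EMX1-FL and 13.4, 11.6 and 11.7 CPM with EMX1-X1. PRSS23, a secreted serine protease (chromosome 11, 86791059 to 86952910), was at 10.8, 12.1 and 13.2 CPM in the vector control, 35.3, 28.3 and 27.0 CPM with EMX1-FL and 21.6, 20.8 and 22.4 CPM with EMX1-X1. In all 3 genes every EMX1-FL library was above every EMX1-X1 library, which in turn was above every vector control library. The log2 fold changes for either isoform were 1.30 for GREM1 (standard error 0.20), 1.14 for MMP1 (standard error 0.17) and 1.09 for PRSS23 (standard error 0.16), each with an adjusted p of 0.0439. Other genes share 12.2% of the exon bases of PRSS23 and 7.61% of those of MMP1.

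The last 3 genes were TDO2, PLAAT1 and SLC35D3. TDO2, the liver enzyme that opens the kynurenine pathway of tryptophan breakdown (chromosome 4, 155854738 to 155920406), was at 11.9, 11.7 and 9.31 CPM in the vector control, 35.0, 42.1 and 38.1 CPM with EMX1-FL and 30.9, 17.6 and 18.1 CPM with EMX1-X1. The EMX1-FL libraries were all above those of EMX1-X1, and the log2 fold change was 1.41 ± 0.22 (SE, adjusted p = 0.0439). PLAAT1, a phospholipid acyltransferase (chromosome 3, 193241128 to 193277738), was at 1.07, 0.960 and 1.32 CPM in the vector control, 4.35, 3.50 and 3.37 CPM with EMX1-FL and 3.50, 3.24 and 3.51 CPM with EMX1-X1. The overexpression libraries of PLAAT1 overlapped between isoforms, with a log2 fold change of 1.67 ± 0.24 (SE, adjusted p = 0.0437). SLC35D3, a nucleotide sugar transporter-like protein (chromosome 6, 136922301 to 136925660), was the least variable of the 14: 5.57, 5.59 and 5.44 CPM in the vector control, 11.4, 12.1 and 13.3 CPM with EMX1-FL and 10.8, 11.3 and 11.3 CPM with EMX1-X1. Its log2 fold change was 1.08 ± 0.16 (SE, adjusted p = 0.0439).

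**Figure D2:**
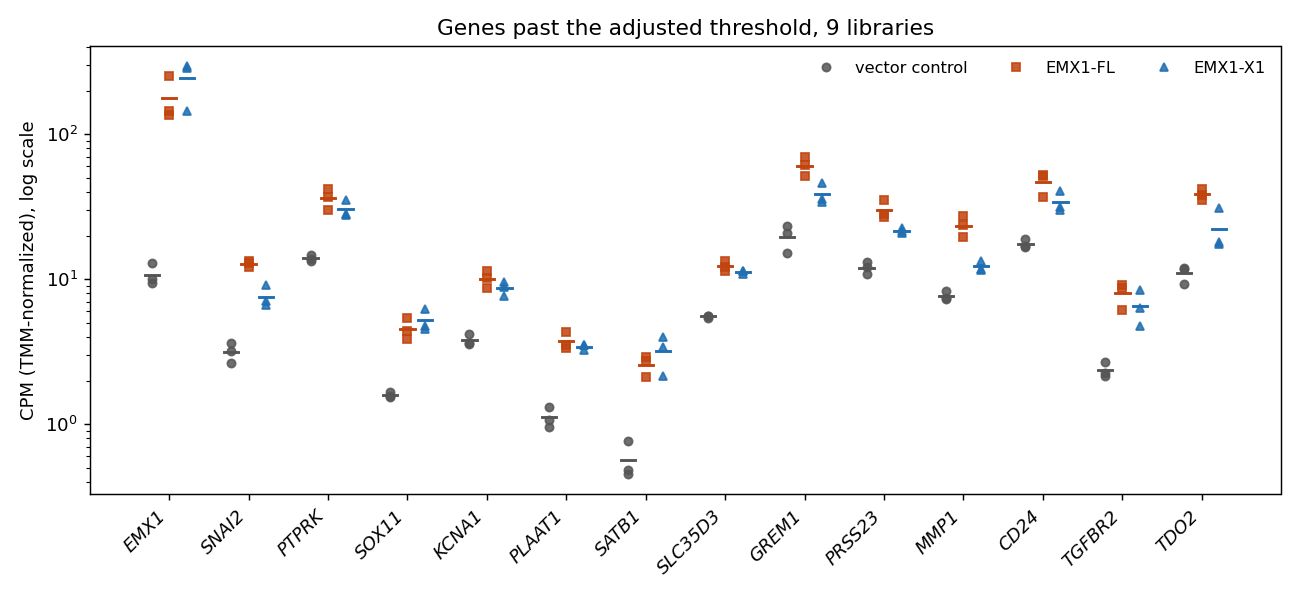
CPM per library on a log axis for the 14 genes past the adjusted threshold, with 3 points per group and a bar at the group mean. In each gene the 6 overexpression libraries lie above the 3 vector control libraries, from 0.453 to 4 CPM for SATB1 up to 9.34 to 294 CPM for EMX1.

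Within the sides of the first principal component the 13 genes other than EMX1 had mean log2 differences of 1.06 to 1.81 among the 5 libraries and 0.825 to 2.59 among the 4. Their direction there was fixed in advance, because in each gene every overexpression library lay above every vector control library. Their adjusted p-values lay between 0.0279 and 0.0439, close to the threshold. When any 1 library other than EMX1-FL replicate 1 was left out, EMX1 alone passed, and without EMX1-FL replicate 1 there were 41 genes higher and 1 lower, the 14 among them. Per gene length, the highest of the 14 after EMX1 in the overexpression libraries was CD24 at 49.2 TPM, followed by MMP1 at 33.9, TDO2 at 21.6 and SLC35D3 at 18.8 TPM, and the lowest was SATB1.

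The contrast of EMX1-FL with EMX1-X1 uses no vector control library and showed how equally the isoforms moved these genes. It is not balanced over the first principal component. EMX1-FL replicates 2 and 3 and EMX1-X1 replicate 1 lay on one side, and EMX1-FL replicate 1 and EMX1-X1 replicates 2 and 3 on the other. Over all genes tested, 1418 (7.63%) had an unadjusted p under 0.05 between the isoforms, the smallest adjusted p was 0.611, and 0 passed. Of the 383 DEGs of either isoform, 34 (8.88%) had such a p, a share near that background, 26 of them with the larger change in EMX1-FL cells; of the 1418, by the same measure (the direction of the pooled value), 564 had the larger change with EMX1-FL and 854 with EMX1-X1. A log2 fold change of 1 or more on the same side with each isoform was reached by 262 of the 383, the vector control libraries being shared. Of the 14 genes past the adjusted threshold, 6 had an unadjusted p under 0.05 between the isoforms, all with the larger value in EMX1-FL cells. By edgeR's quasi-likelihood test, the log2 difference was 0.94 ± 0.19 (SE) for MMP1 with an unadjusted p of 0.000333. It was 0.75 ± 0.21 for SNAI2, 0.79 ± 0.24 for TDO2 and 0.65 ± 0.21 for GREM1, with unadjusted p-values of 0.00357, 0.00566 and 0.00937. For PRSS23 and CD24 it was 0.48 ± 0.18 and 0.47 ± 0.20, with unadjusted p-values of 0.019 and 0.0374. For PTPRK the difference was 0.25 (standard error 0.19), for TGFBR2 0.30 (0.26), for KCNA1 0.21 (0.20), for PLAAT1 0.13 (0.24) and for SLC35D3 0.14 (0.17), none past an unadjusted p of 0.05. EMX1, SOX11 and SATB1 had the larger value in EMX1-X1 cells, by -0.45 (standard error 0.30), -0.19 (0.23) and -0.31 (0.32) on the log2 scale of EMX1-FL minus EMX1-X1, also not past it.

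**Figure D3:**
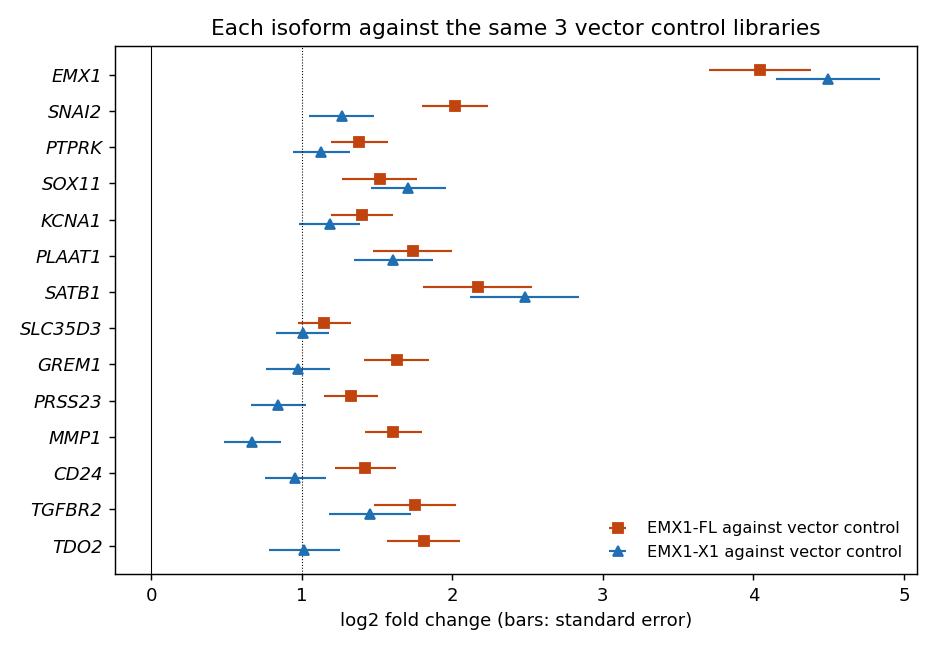
Log2 fold change with its standard error for EMX1-FL (squares) and EMX1-X1 (triangles), each against the same 3 vector control libraries, for the 14 genes past the adjusted threshold. All values lie to the right of 0, from 0.67 for MMP1 with EMX1-X1 to 4.5 for EMX1 with EMX1-X1, and the bars of MMP1, SNAI2, TDO2, GREM1, PRSS23 and CD24 lie farther right with EMX1-FL.

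Several genes lay just outside the adjusted threshold with the same pattern. SHROOM3, a regulator of the apical actin network singled out after its values were seen, was at 8.61, 7.77 and 8.86 CPM in the vector control and at 15 to 21.2 CPM in the overexpression libraries, with a log2 fold change of 1.10 and an adjusted p of 0.0541 in edgeR. MMP2, the gelatinase that degrades basement membrane, was at 1.58, 2.23 and 3.13 CPM in the vector control and at 5.68 to 7.32 CPM with either isoform (log2 fold change 1.48, standard error 0.24, adjusted p = 0.0651). SDC2, a heparan sulfate proteoglycan of the cell surface, was at 6.35 to 7.58 CPM in the vector control and at 13.1 to 23.2 CPM with either isoform (log2 fold change 1.31, standard error 0.22, adjusted p = 0.0651). COL12A1, a fibril-associated collagen, reached the same adjusted p of 0.0651 with a log2 fold change of 0.90, from 68.8 to 78.2 CPM in the vector control to 104 to 162 CPM. None of these groups overlapped. MMP2 had a log2 difference between the isoforms of -0.07 (standard error 0.25, unadjusted p = 0.780 in edgeR), while COL12A1 was higher with EMX1-FL (0.37, standard error 0.17, unadjusted p = 0.0432).

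Genes of the extracellular matrix and of its turnover leaned upward, with few single calls. The median log2 fold change was 0.43 over 28 collagen chains (24 positive), 0.41 over 35 matrix glycoproteins and proteoglycans (28 positive), 0.43 over 7 members of the plasminogen activator system (7 positive) and 0.34 over 23 ADAM and ADAMTS proteases (18 positive), beside 0.026 over all genes tested, of which 10119 of 18574 were positive. Within the sides of the first principal component these medians were, in the same order, 0.22 and 0.60, 0.21 and 0.31, 0.44 and 0.52, and 0.068 and 0.39. DEGs higher were 2 of the 28 collagens (COL6A3 and COL4A2), 4 of the 35 matrix genes (SDC2, TNC, VCAN and FBN2), 2 of the 7 (PRSS23 and SERPINE2) and 1 of the 23 (ADAMTS9), beside 1.73% of all genes tested, and 0 were DEGs lower. PRSS23 alone of these members passed the adjusted threshold. It is a secreted serine protease counted in the plasminogen activator list, and the lists were chosen with earlier results of these data known. Its count there is therefore no evidence about that system. TNC, an adhesion-modulating glycoprotein, was at 1.2, 1.53 and 0.865 CPM in the vector control and at 2.03 to 4.39 CPM with either isoform (log2 fold change 1.47, adjusted p = 0.146). COL6A3 had 1.69 to 3.34 CPM in the vector control and 4.48 to 8.48 CPM with either isoform (log2 fold change 1.29, adjusted p = 0.164). SERPINE2, an inhibitor of thrombin and plasminogen activators, had 5.85 to 8.24 and 11.2 to 18.7 CPM (log2 fold change 1.03, adjusted p = 0.124), and ADAMTS9 had 2.44 to 2.88 and 4.79 to 6.93 CPM (1.14, adjusted p = 0.0918). The groups did not overlap in any of these 4 genes. Of the 35 matrix genes, 7 were negative. Without overlap, 3 of the 35 lay below and 8 above the vector control, beside 1.71% and 2.57% of all genes tested. DCN, the proteoglycan decorin, was among the negative ones, with a log2 fold change of -0.54 (unadjusted p = 0.00497). The 5 stromal markers, DCN among them, summed to 516 to 865 TPM in the vector control and 565 to 1020 TPM with either isoform, and their part in these values was not tested. With a GC offset the medians were 0.31, 0.27, 0.37 and 0.085, so that of the ADAM and ADAMTS proteases was the one that fell most.

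Of 16 matrix metalloproteinases and TIMPs 8 were positive, with a median of 0.054 that turned to -0.008 with the GC offset. The median was 0.24 with EMX1-FL alone and 0.34 with EMX1-X1 alone. An unadjusted p under 0.05 was reached by 6 of the 16 in edgeR, all higher, beside 4.6% of all genes tested. MMP1 and MMP2 were DEGs higher, beside 1.73% of all genes tested. MMP10 and MMP14 had log2 fold changes of 0.78 and 0.64 without overlap between the groups, short of the DEG fold. Of 17 integrin subunits, which anchor cells to the matrix, 16 were positive (median 0.17). ITGA2 and ITGB8 were DEGs higher, beside 1.73% of all genes tested. ITGA2, the collagen-binding subunit, was at 1.36 to 2.65 CPM in the vector control and 3.37 to 7.99 CPM with either isoform (log2 fold change 1.24, adjusted p = 0.146), and it was higher with EMX1-FL than with EMX1-X1 (unadjusted p = 0.0203). ITGA4 had a log2 fold change of 0.89 with overlap. All 8 laminin chains were positive (median 0.17, -0.016 and 0.28 within the sides of the first principal component), with 0.31 for LAMB1 (unadjusted p = 0.0301) and 0.31 for LAMA2 (unadjusted p = 0.0646), and none was a DEG.

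Among 19 EMT transcription factors and state markers, 14 were positive (median 0.38, or 0.11 with EMX1-FL alone and 0.48 with EMX1-X1 alone), and SNAI2 was the one DEG and the one gene past the adjusted threshold. FN1, fibronectin, was at 161 to 175 CPM in the vector control and at 227 to 277 CPM with either isoform, without overlap (log2 fold change 0.58, adjusted p = 0.164). The N-cadherin gene CDH2 had a log2 fold change of 0.53 (unadjusted p = 0.0171), with groups that overlapped in CPM and not in TPM (9.18 to 10.7 and 11.5 to 18.1 TPM), and VIM had -0.07 (unadjusted p = 0.639). The epithelial genes EPCAM and CDH1 had 0.48 and 0.53 (unadjusted p = 0.0756 and 0.0807), so markers of both states had positive values. Of 64 cadherins and protocadherins 27 were positive (median -0.084) and none was a DEG. PCDH17, a protocadherin of neural tissue, was at 57.6 to 79.3 CPM in the vector control and 25.2 to 50.7 CPM with either isoform (log2 fold change -0.83, adjusted p = 0.231), without overlap. PCDHGC4, a clustered protocadherin with 43.8% of its exon bases shared with other genes, had 0.74 (adjusted p = 0.551).

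The receptor-type protein tyrosine phosphatases held 4 DEGs higher among 14 members tested, PTPRK, PTPRM, PTPRD and PTPRE, beside 1.73% of all genes tested, with 12 positive values and a median of 0.30. PTPRM, which like PTPRK binds itself between cells, was at 5.18, 3.19 and 3.42 CPM in the vector control and 5.73 to 9.98 CPM with either isoform (log2 fold change 1.03, adjusted p = 0.154), without overlap. PTPRD and PTPRE had log2 fold changes of 1.59 and 1.36, and those of PTPRE overlapped.

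For the EGFR-ERK pathway, through which the receptor EGFR drives growth and migration and which the study examined, EGFR was at 13.4, 15.5 and 15.5 CPM in the vector control, 33.0, 34.0 and 25.3 CPM with EMX1-FL and 22.8, 22.2 and 20.8 CPM with EMX1-X1. The 3 groups did not overlap, and the log2 fold change for either isoform was 0.81 (standard error 0.16, adjusted p = 0.124), short of the DEG fold. By isoform it was 1.06 with EMX1-FL (adjusted p = 0.0627) and 0.57 with EMX1-X1 (adjusted p = 0.526), and the gap between isoforms of 0.49 had a standard error of 0.18, with an unadjusted p of 0.0186 and an adjusted p of 0.611 in edgeR. Of 8 EGF receptors and ligands 6 were positive (median 0.31), and TGFA had 1.65 at 0.114 CPM in the vector control (adjusted p = 0.780). The kinases downstream showed no call: of 10 MEK, ERK, RAF and RAS genes 5 were positive (median -0.033) and none reached an unadjusted p of 0.05. For EMX1-FL and EMX1-X1 in turn, the log2 fold changes were 0.19 and 0.25 for MAP2K1, -0.20 and 0.46 for MAP2K2 and -0.18 and 0.38 for MAPK3. The direction of MAP2K2 and MAPK3 for either isoform (0.13 and 0.10) turned under several alternatives. Of 27 ERK feedback and output genes 13 were positive (median -0.073) with 0 DEGs. FOS, an immediate early factor, was at 12.2, 12.7 and 13.6 CPM in the vector control and 6.93 to 9.97 CPM with either isoform (log2 fold change -0.65, adjusted p = 0.191). SPRY2, a feedback inhibitor of receptor signalling, was at 187 to 237 and 122 to 165 CPM (log2 fold change -0.50, adjusted p = 0.359). Both were without overlap, while PHLDA1, DUSP4 and IER3 had positive values of 0.53, 0.57 and 0.56 (unadjusted p under 0.05). Counts of mRNA do not measure phosphorylation.

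Among TGF-beta, BMP, YAP and Notch genes, GREM1 and TGFBR2 were those past the adjusted threshold. Of 29 BMP and TGF-beta ligands and inhibitors 22 were positive (median 0.24), GREM1 was the one DEG, and GDF6 followed with 2.14 CPM in the vector control and a log2 fold change of 0.78 (adjusted p = 0.333). Of 25 receptors and targets 14 were positive (median 0.036), a value that turned to -0.024 with the GC offset, and TGFBR2 was the one DEG. ID2, a BMP target that blocks basic helix-loop-helix factors, had lower values: 61.9 to 78.5 CPM in the vector control and 31.9 to 49.1 CPM with either isoform (log2 fold change -0.67, adjusted p = 0.2). Of 24 YAP and TEAD target genes 19 were positive (median 0.20). An unadjusted p under 0.05 was reached by 8 of the 24 in edgeR, all higher, beside 4.6% of all genes tested. CCN2, ANKRD1 and IGFBP3 were DEGs higher, beside 1.73% of all genes tested. The groups overlapped for ANKRD1, with log2 fold changes of 2.25 with EMX1-FL and 0.71 with EMX1-X1 (unadjusted p = 0.00115 between the isoforms in edgeR). CCN2, a matricellular growth factor, was at 5.07 to 6.47 CPM in the vector control and 8.70 to 17.5 CPM with either isoform (log2 fold change 1.10, adjusted p = 0.126), and CCN1 at 31.4 to 38.3 and 52.4 to 86.8 CPM (0.88, adjusted p = 0.151), both without overlap. All 19 Notch ligands, receptors and targets had positive values, with a median of 0.43 that was 0.19 with the GC offset, and none was a DEG. That median was unequal between the isoforms, 0.12 with EMX1-FL and 0.68 with EMX1-X1 against the same vector control libraries, and between the sides of the first principal component, 0.035 among the 5 libraries and 0.61 among the 4. JAG1, a Notch ligand, was at 9.11 to 10.3 CPM in the vector control and 14.5 to 19.7 CPM with either isoform (log2 fold change 0.72, adjusted p = 0.171), and the target HEY1 at 3.87 to 4.98 and 6.08 to 8.44 CPM (0.71, adjusted p = 0.302), again without overlap. Of 41 WNT genes 30 were positive (median 0.16), SFRP1 had 0.72, and WNT16 was the one DEG, lower by -1.33 at 1.40 CPM in the vector control.

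Axon guidance genes had values in both directions, none past the adjusted threshold. Of 29 semaphorins, plexins and neuropilins 23 were positive (median 0.23). SEMA3C and SEMA7A were DEGs higher and SEMA3D was a DEG lower, beside 1.73% and 0.334% of all genes tested. NRP2, the co-receptor of class 3 semaphorins and of VEGF, was the abundant member of the lower genes: 390, 412 and 428 CPM in the vector control, 252, 210 and 213 CPM with EMX1-FL and 273, 286 and 298 CPM with EMX1-X1. Its 3 groups did not overlap, with EMX1-FL lowest (unadjusted p = 0.0329 between the isoforms), and the log2 fold change was -0.69 ± 0.12 (SE, adjusted p = 0.0918). SEMA3C, a secreted semaphorin, was at 34.0, 24.2 and 16.6 CPM in the vector control and at 35.1 to 84.7 CPM with either isoform (log2 fold change 1.11, adjusted p = 0.339), and SEMA3D at 37.3, 41.7 and 23.0 and at 10.8 to 23.3 CPM (-1.04, adjusted p = 0.253). The groups did not overlap for SEMA3C, although the highest vector control library was close to the lowest overexpression library, and they overlapped for SEMA3D. SEMA6C, a membrane-bound member, had 71.2 to 76.8 and 96.3 to 193 CPM (log2 fold change 0.88, adjusted p = 0.22). Of 31 ephrins, Eph receptors, Slits, Robos and netrins 22 were positive (median 0.26, 0.055 with the GC offset). Their median was 0.022 with EMX1-FL and 0.42 with EMX1-X1, and -0.048 and 0.38 within the sides of the first principal component. The side of 4 libraries holds EMX1-X1 replicates 2 and 3 and EMX1-FL replicate 1, so isoform and side cannot be fully told apart here. The semaphorin list had 0.038 and 0.38 within these sides. EFNA4 had 0.89 (adjusted p = 0.398) and EPHA7 was the one DEG.

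**Figure D4:**
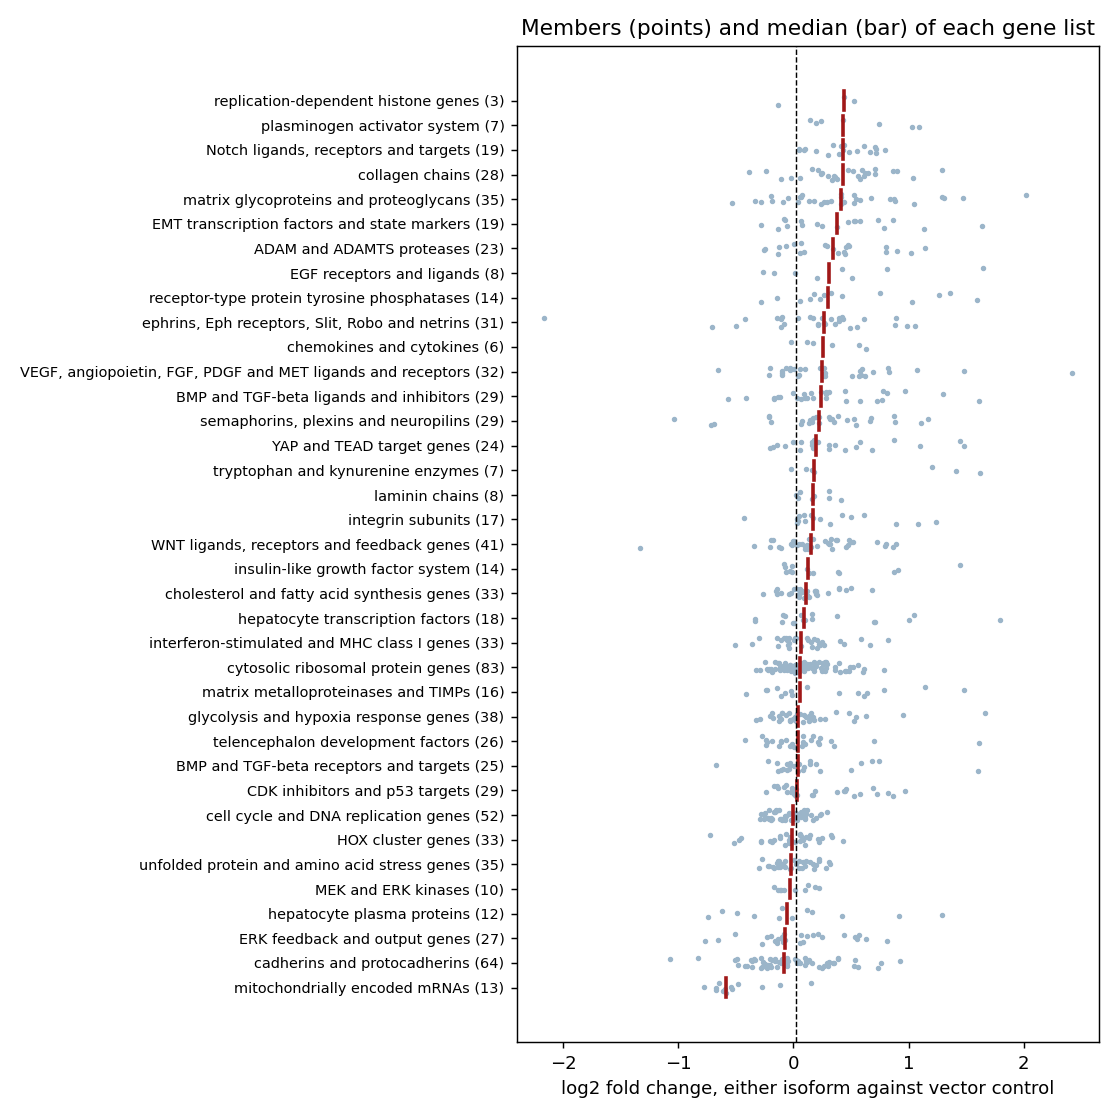
Log2 fold change of either isoform against the vector control for the members tested of each of 37 gene lists (points, number in brackets) and the list median (bar), with a dashed line at the median of all genes tested, 0.026. The collagen, matrix glycoprotein, plasminogen activator, ADAM, Notch, EMT and histone lists have their medians at 0.34 to 0.44, the metalloproteinase and laminin lists theirs at 0.054 and 0.17, and the mitochondrially encoded mRNAs have theirs at -0.58.

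EPHA7, an Eph receptor of the developing brain (chromosome 6, 93240020 to 93419559), came first among the lower DEGs named by p. It was at 5.78, 5.15 and 2.47 CPM in the vector control, at 0.444, 1.35 and 0.785 CPM with EMX1-FL and at 1.62, 1.33 and 0.444 CPM with EMX1-X1. The groups did not overlap, and the log2 fold change was -2.17 ± 0.41 (SE, adjusted p = 0.114), with -2 and -1.92 within the 2 sides of the first principal component. The rule for named genes gave 4 more lower genes. GCG, the glucagon precursor, was at 2.72 to 3.21 CPM in the vector control and 1.09 to 1.94 CPM with either isoform (log2 fold change -1.03, adjusted p = 0.253). ACTG1P22 and RN7SL221P, both pseudogenes, had -1.34 and -1.03 (adjusted p = 0.255 and 0.543). FTL, the ferritin light chain, had -1.05 at 0.462 to 2.70 CPM over the 9 libraries (adjusted p = 0.678). The 3 last genes have near-identical copies in the genome, so their counts are uncertain.

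The mitochondrially encoded mRNAs, which code for subunits of the respiratory chain and of ATP synthase, leaned lower: 12 of 13 were negative with a median of -0.58, and the median was -0.56 to -0.60 under the other scalings. None was a DEG, and 10 had an unadjusted p under 0.05, all lower, beside 1.82% of all genes tested. MT-CO3 was at 3610, 3630 and 4190 CPM in the vector control, at 1870, 2500 and 2210 CPM with EMX1-FL and at 2740, 2490 and 2630 CPM with EMX1-X1 (log2 fold change -0.67, standard error 0.12, adjusted p = 0.0918). MT-CYB was at 2760 to 3620 CPM in the vector control and 1410 to 2490 CPM with either isoform (log2 fold change -0.67, adjusted p = 0.274). Neither overlapped. The list median was -0.22 among the 5 libraries on one side of the first principal component and -1.13 among the other 4. In bulk RNA, fewer cells rich in this RNA and less of it per cell cannot be told apart.

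**Figure D5:**
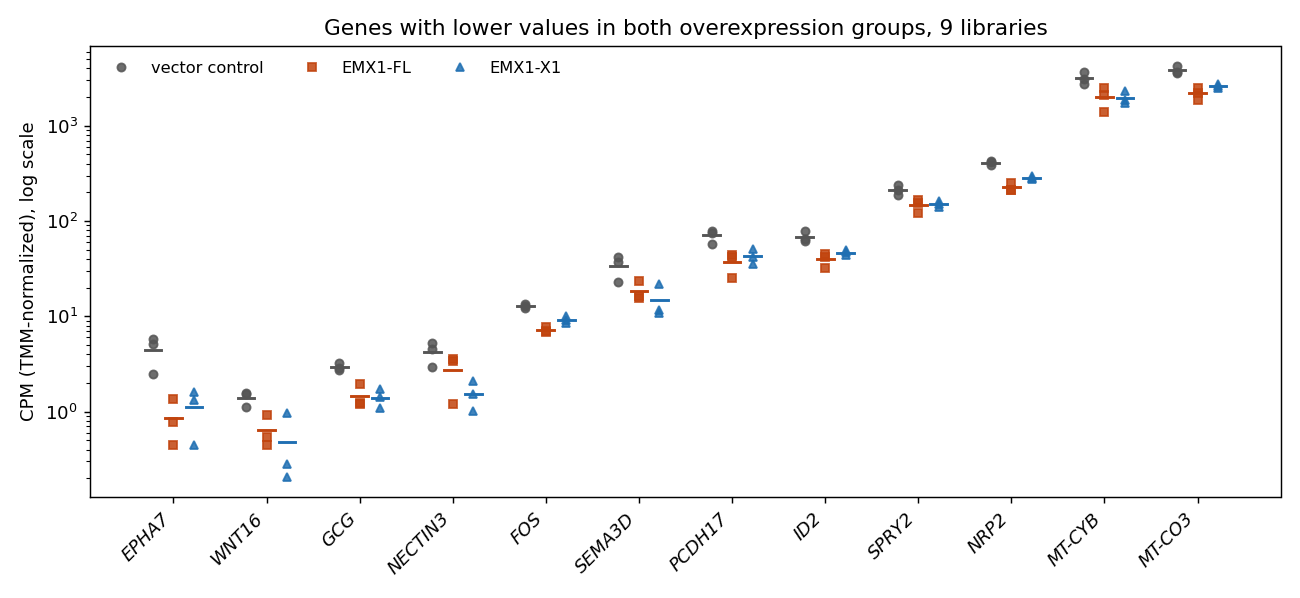
CPM per library on a log axis for 12 genes with lower mean values in both overexpression groups, with 3 points per group and a bar at the group mean. NRP2 is at 390 to 428 CPM in the vector control and at 210 to 298 CPM in the overexpression libraries, and SEMA3D and NECTIN3 are the genes in which the groups overlap.

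Of the lists of metabolism, liver identity and growth, those of tryptophan metabolism and of hepatocyte transcription factors held 3 DEGs higher each, beside 1.73% of all genes tested. Of 7 tryptophan and kynurenine genes 6 were positive (median 0.18) and TDO2, KYAT1 and AHR were DEGs higher. KYAT1 had a mean of 0.42 CPM and groups that overlapped (unadjusted p = 0.047, adjusted p = 0.77 in edgeR). AHR, the receptor that kynurenine can bind, was at 0.989 to 1.18 CPM in the vector control and 1.73 to 3.83 CPM with either isoform (log2 fold change 1.2, adjusted p = 0.261), with 35.2% of its exon bases shared with other genes. Of 18 hepatocyte transcription factors 12 were positive (median 0.090), and ONECUT1, PROX1 and CEBPD were DEGs higher; ONECUT1 had 1.00 and PROX1 1.79, from 0.368 CPM in the vector control. Of 12 hepatocyte plasma proteins 5 were positive (median -0.054). ALB, albumin, was at 0.642, 0.436 and 0.742 CPM in the vector control and 0.832 to 2.45 CPM with either isoform (log2 fold change 1.29, adjusted p = 0.468), still near the low end of detection, and F10 had -0.62. Of 26 telencephalon development factors 14 were positive (median 0.039, -0.009 with the GC offset), SOX11 was the one DEG, and NR2F1 had -0.42 (adjusted p = 0.469). The 33 HOX genes had a median of -0.011, with HOXA2 and HOXA11 at -0.47 and -0.46.

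None of 52 cell cycle and DNA replication genes reached an unadjusted p of 0.05 (median -0.004, range -0.29 to 0.30), with MCM6 and GINS1 both at -0.25. The 33 cholesterol and fatty acid synthesis genes (median 0.11) and the 35 genes of the unfolded protein and amino acid stress responses (median -0.020) likewise had none, with 0.40 for MSMO1, 0.68 for PMVK, 0.29 for HSPA5 and -0.30 for ATF3. Nor had the 83 cytosolic ribosomal protein genes (median 0.058), with 0.49 for RPS15 and -0.25 for RPL22, or the 3 histone genes, with 0.44 for H1-2 and 0.53 for H1-5. Of 29 CDK inhibitors and p53 targets 6 reached it, all higher (median 0.033), beside 4.6% of all genes tested. CDKN1A, which encodes p21, was at 12.7 CPM in the vector control and at 18.0 and 23.7 CPM with EMX1-FL and EMX1-X1 (group means, log2 fold change 0.69, adjusted p = 0.440), and CDKN2B had 0.44 (adjusted p = 0.432). Of 38 glycolysis and hypoxia genes 4 reached an unadjusted p of 0.05, all higher, beside the same 4.6%. ADM was at 0.95 and EGLN3 at 1.66 (adjusted p = 0.174 and 0.238). Of 32 angiogenic and growth factor genes 22 were positive (median 0.25, 0.046 with the GC offset), with KIT at 2.42 from 0.114 CPM and FGFR2 at 0.59, both with overlap. The 14 genes of the insulin-like growth factor system had IGFBP7 at 0.87 and IGFBP3 at 1.45, the 6 chemokines and cytokines LIF at 0.63 and TSLP at 0.57, and the 33 interferon-stimulated and MHC class I genes HERC6 at 0.82 and PARP9 at -0.51, none past the adjusted threshold.

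Promoters of the higher genes were searched for TAATTA, the palindromic site of many homeodomains, which reads the same on both strands. RefSeq sequences of GRCh38.p14, from 250 bases before to 50 after each start, were given for 9 of the 14 genes past the adjusted threshold (17 promoters) and for 180 of the 321 DEGs higher (293 promoters). The letters were in 0 of the 17 promoters and in 9 of the 293 (3.07%), against 417 of 16745 promoters of the genes tested (2.49%) and 1699 of all 35116 promoters (4.84%), so the share among the DEGs was near that of the genes tested. The shorter TAAT was in 6 of the 17 (35.3%) and in 127 of the 293 (43.3%). It was in 37.6% of the promoters of the genes tested and in 50.2% of all promoters. The site that the study mapped in the EGFR promoter lies farther upstream than these sequences reach. The 4 windows below are those of DEGs higher with a mean of at least 1 CPM, 1 readthrough gene left out, with the TAATTA in capitals and 12 bases to each side, 5' to 3' on the strand of the gene.
GFRA1: gatcagatgactTAATTAcatttctgctta
GCNT1: ttggacattacaTAATTAcaaattaaaaac
ZNF536: acattaccgcttTAATTAacttcgagatgc
TOMM7: tccctctgaattTAATTAatgttccttcca
The window of GFRA1 lies on chr10:116274915-116274944 (minus strand), that of GCNT1 on chr9:76393676-76393705 (plus strand), that of ZNF536 on chr19:30228414-30228443 (plus strand) and that of TOMM7 on chr7:22823056-22823085 (minus strand). The first letter of the site lies 227, 181, 84 and 224 bases before the start, in that order. As counted, GFRA1 reaches up to 116273467 and GCNT1 begins at 76419850, so for these 2 genes the promoter start lies outside the gene as counted. GFRA1, the receptor of GDNF, was at 0.814, 0.916 and 0.948 CPM in the vector control and 1.91 to 2.75 CPM with either isoform (log2 fold change 1.32, adjusted p = 0.139). GCNT1, a glycan-branching enzyme, had a log2 fold change of 1.69 (adjusted p = 0.260), ZNF536, a zinc finger repressor, 1.14 (adjusted p = 0.371), and TOMM7, a subunit of the mitochondrial import pore, 1.11 (adjusted p = 0.619). The value for TOMM7 rested on EMX1-FL replicate 1, at 57.8 CPM where the other 5 overexpression libraries had 12.8 to 15.4 and the vector control 7.58 to 11.7, and was 0.62 without it. These 4 genes were singled out after their values were seen, and a match of letters is a description of the window, not evidence of binding.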

How the data were processed

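The 9 RNA-seq libraries were grouped by their sample labels (0 columns left unmapped). The deposited table gives unnormalized counts, in read pairs, for each gene name. Per the file headers these came from featureCounts 2.0.1 with Ensembl release 99 of GRCh38, while the labels give version 2.0.6 after fastp and STAR, and the methods name RSEM. By that program's default, pairs over more than 1 gene are not counted. The deposited log2(TPM + 1) values, a log2 scale, were recomputed from counts and the authors' listed gene lengths to within 5.0e-06. Depth was 21562703 to 25197970 pairs, which limits low genes most.

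Counts were fitted in R 4.3.3 with edgeR 4.0.16 (filterByExpr, TMM, quasi-likelihood, all 9 libraries, 6 residual degrees of freedom, common biological CV 0.249), with the mean of both isoforms minus the vector control as the contrast. Alternatives used limma 3.58.1 (pseudocounts of 1 and 0.1 on TPM), DESeq2 1.42.0, other scalings, filters, covariates and left-out libraries. The script was tested on simulated data. No replicate library was a copy of another. Tables were handled in Python 3.11.15 with pandas 2.3.3. Named genes were EMX1, the 14 higher and up to 10 lower DEGs of smallest p (mean of at least 1 CPM, no overlap, no clone-based name), the 2 members of smallest p and those past the adjusted threshold in each of 37 lists, and genes of the EGFR-ERK pathway; others are marked as singled out, and 1 named gene is not reported here. The members and lists were chosen with earlier results of these data known. GC content came from GENCODE release 29.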

Additional observations from a re-analysis of the deposited data

Results flagged for a closer look

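Among 104 groups of 6 overexpression values tested for 1 library apart from the others, 5 were flagged, where chance flags about 1 in 20. Of these, 4 concerned EMX1-FL replicate 1. PLAAT1 was at 4.35 CPM there and at 3.24 to 3.51 CPM in the other 5 (gap over range 0.726). TOMM7 was at 57.8 CPM there and at 12.8 to 15.4 CPM in the other 5 (0.88). RPS15 was at 643 CPM there and at 357 to 419 CPM in the others (0.727), and ID2 at 31.9 against 42.0 to 49.1 CPM (0.64). GDNF was at 2.95 CPM in EMX1-X1 replicate 3 and at 3.74 to 4.26 CPM in the other 5 (0.646).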

How the results depend on the processing

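The number of genes past the adjusted threshold depended on the processing more than the DEG counts did. Against 14 higher and 0 lower, it was 97 and 8 with DESeq2, 92 and 5 with no filter beyond 1 count, 78 and 3 with the side of the first principal component as a covariate, 71 and 5 with a GC offset, and 35 and 2 with the GC offset and the replicate block, with all 14 genes among those higher in each. It was 7 higher with the 6 overexpression libraries as 1 group, 7 without mitochondrially encoded genes (an alternative chosen after seeing the data), 3 and 6 with limma on log2(TPM + 1) and log2(TPM + 0.1), and 1 with glmTreat at a fold of 1.5. With 1 library left out it ranged from 1 to 41 higher and 0 to 1 lower. The replicate block left 1 gene, EMX1, with 282 DEGs higher and 58 lower; same-numbered libraries shared only a number (mean correlation of deviations -0.126, against 0.0596 for other numbers).

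Against 321 higher and 62 lower DEGs, limma on log2(TPM + 1) gave 71 and 16, no filter 569 and 499, at least 10 counts in every library 124 and 12, and unadjusted p alone 855 and 338. DEGs lower were 39 with glmTreat. Leaving out 1 library gave 285 to 356 DEGs higher and 54 to 116 lower; the lower count was 106 without vector control replicate 3, 108 and 116 without EMX1-FL replicates 1 and 2 and 114 without EMX1-X1 replicate 1. Of 2485 values of single genes under alternatives, 9 reversed: MAP2K2 was -0.072 to 0.25 with 1 library left out (negative without EMX1-FL replicate 1), -0.061 with the component side, -0.078 with the GC offset and -0.077 with offset and replicate block; MAPK3 was -0.061 to 0.22 with 1 library left out (negative without EMX1-FL replicate 1 and, at -0.021, vector control replicate 2), -0.039 with the side, -0.095 with the GC offset and -0.093 with offset and block. The cause was not tested. Genes of a few counts were limited most by depth.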

Other observations

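Some DEGs higher in none of the gene lists had higher values with both isoforms, and were singled out after their values were seen. GDNF, a neurotrophic ligand, and its receptor GFRA1 were both higher: GDNF was at 2.31, 1.57 and 1.52 CPM in the vector control and 2.95 to 4.26 CPM with either isoform (log2 fold change 1.10, adjusted p = 0.151 in edgeR). TBXT, the mesoderm factor brachyury, was at 2.01, 2.18 and 3.67 CPM in the vector control and 4.29 to 7.41 CPM with either isoform (1.2, adjusted p = 0.168). PALLD, an actin-bundling protein, was at 7.95 to 9.93 and 13.9 to 28.2 CPM (1.28, adjusted p = 0.0918), and F2RL1, a receptor cleaved by serine proteases, at 2.31 to 2.72 and 4.79 to 9.28 CPM (1.28, adjusted p = 0.108). None of these groups overlapped. TNFRSF12A, the receptor of TWEAK, was at 27.0 to 33.5 CPM in the vector control and 35.3 to 106 CPM with either isoform (1.23, adjusted p = 0.354), with 0.67 and 1.54 within the 2 sides of the first principal component.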
